A study of Bos taurus with 47 samples.

Results

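The caseins are the main proteins of cow's milk, and 4 genes encode them: CSN1S1 (alpha s1 casein), CSN2 (beta casein), CSN3 (kappa casein) and CSN1S2 (alpha s2 casein). The corresponding rows of the deposited table were taken by identifier, ENSBTAG00000007695, ENSBTAG00000002632, ENSBTAG00000039787 and ENSBTAG00000005005, which are 4 of 24616 gene identifiers. The series holds 47 RNA-seq libraries of Holstein cattle under 15 tissue labels. The lactating mammary gland came from a female called the lactating cow here, and the dry mammary gland from another female, called the dry cow, with 1 library each. The other 45 libraries cover spleen, rumen, muscle, lung, liver, kidney, ileum, heart, frontal cortex and adipose tissue of both cows and of 2 males, called A and B, as well as the ovaries and uteri of the cows and lymphocytes of a further male. The labels name no treatment, age, stage of lactation or sequencing batch. Values are FPKM (fragments scaled to transcript length and to the fragments of the library), so levels of different genes can be compared per length, and each level is relative to the rest of its library.

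Caseins are made by the secretory epithelial cells of the mammary gland and leave the cell as micelles, colloidal particles that carry calcium and phosphate. The alpha s1, alpha s2 and beta caseins are phosphoproteins that bind calcium and would precipitate with it, and kappa casein sits on the surface of the micelle and keeps it in solution until chymosin cuts it, the step that curdles milk. Transcription of casein genes in the gland is known to depend on prolactin acting through STAT5, together with glucocorticoids and insulin, and to decline when milking stops. The genes form a cluster in mammals. In the RefSeq gene table of another assembly, ARS-UCD2.0, their order is CSN1S1, CSN2, CSN1S2 and CSN3, with HSTN and STATH between CSN2 and CSN1S2, and PRR27 and ODAM as the protein-coding genes between CSN1S2 and CSN3.

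The lactating gland was dominated by casein transcripts. CSN1S1 stood at 157804 FPKM in the lactating gland and at 1636 FPKM in the dry gland. CSN2, which encodes beta casein, stood at 150741 FPKM in the lactating gland and at 1671 FPKM in the dry gland. CSN3, the kappa casein gene, stood at 108850 FPKM in the lactating gland and at 3456 FPKM in the dry gland. CSN1S2, the alpha s2 casein gene and the lowest of the 4 in both glands, stood at 61750 FPKM in the lactating gland and at 597 FPKM in the dry gland. Every casein was thus higher in the lactating gland, and CSN3 kept the most of its level in the dry gland.

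**Figure D1:**
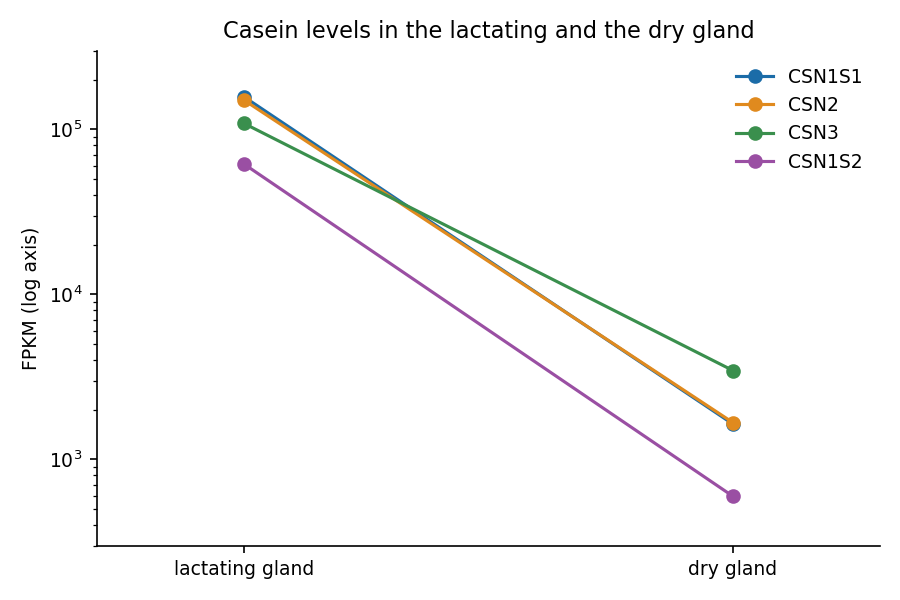
FPKM of the 4 caseins (log axis) in the lactating gland of one cow and the dry gland of the other, with 1 library each and lines joining the values of a gene. The lines of CSN1S1 and CSN2 lie on each other, while the line of CSN3 crosses them, from below in the lactating gland (108850 FPKM) to above in the dry gland (3456 FPKM).

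Among all genes of the lactating gland CSN1S1 ranked 1, CSN2 ranked 2, CSN3 ranked 4 and CSN1S2 ranked 6 by FPKM. In the dry gland CSN3 ranked 21, CSN2 ranked 74, CSN1S1 ranked 77 and CSN1S2 ranked 152. The 4 genes together held 51.0% of the summed FPKM of the lactating gland and 1.07% of that of the dry gland. By gene, CSN1S1 held 16.8% in the lactating gland and 0.239% in the dry gland, CSN2 16.0% and 0.244%, CSN3 11.6% and 0.504%, and CSN1S2 6.57% and 0.0872%. FPKM is per length, so these are not shares of fragments.

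The excess in the lactating gland was of like size for the calcium-sensitive caseins and smaller for kappa casein. The lactating gland had 103-fold more CSN1S2, 96.4-fold more CSN1S1 and 90.2-fold more CSN2 than the dry gland, and 31.5-fold more CSN3. Summed over the 4 genes, the level was 65.1-fold higher, a log2 ratio of 6.02. The lactating gland exceeded the dry gland 4-fold or more for 4 of 4 caseins and for 0.831% of the 13002 genes that reached 1 FPKM in either. The reverse, 4-fold or more in favour of the dry gland, held for 0 of 4 caseins and 26.4% of genes. Ranked by the log2 ratio of FPKM + 1 in that set, CSN1S2 was at place 2, CSN1S1 at 3, CSN2 at 5 and CSN3 at 22. These shares and the median log2 ratio of all 13002 genes, -1.50, rest on the scaling, since FPKM is relative to the library and the caseins fill 51.0% of the lactating one. Scaled to the FPKM of all genes other than caseins the median was -1.07, with 1.21% of genes 4-fold or more higher in the lactating gland and 13.7% in the dry gland. After quantile normalization it was 0.00434, with 2.79% of genes higher in the lactating gland and 2.44% in the dry gland. The caseins were 4-fold or more higher in the lactating gland for 4 of 4 under both scalings, which were applied to these shares after the data were seen.

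There is 1 library per gland, so no test was made, and the stage of the gland cannot be told apart from the cow. Whole tissue was sequenced, and fewer secretory cells cannot be told apart from less casein RNA per cell. The scale of the ratio depended on the scaling of the libraries. Relative to the FPKM of all genes other than caseins, the summed ratio was 95.8-fold, with 152-fold for CSN1S2 and 46.3-fold for CSN3. After quantile normalization, which moved the median of all genes by 1.51 on the log2 scale, the log2 ratios were 5.53 for CSN1S2, 5.03 for CSN1S1, 4.92 for CSN2 and 3.45 for CSN3. CSN3 again had the smallest ratio after quantile normalization, while scaling to the other genes multiplies all 4 ratios alike and cannot change their order.

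Ratios between the caseins within a library do not depend on the sum to which the library is scaled. In the lactating gland CSN1S1 made up 32.9% of the summed casein FPKM, CSN2 31.5%, CSN3 22.7% and CSN1S2 12.9%. In the dry gland CSN3 was the leading casein with 47.0%, followed by CSN2 with 22.7%, CSN1S1 with 22.2% and CSN1S2 with 8.12%. CSN3 over CSN1S1 was 0.690 in the lactating gland and 2.11 in the dry gland, and CSN3 over CSN2 was 0.722 in the lactating gland and 2.07 in the dry gland. By contrast, CSN2 over CSN1S1 was 0.955 in the lactating gland and 1.02 in the dry gland, and CSN1S2 over CSN1S1 was 0.391 in the lactating gland and 0.365 in the dry gland. The proportions of the 3 calcium-sensitive caseins to each other therefore differed little between the 2 libraries, and CSN3 stood about 3-fold higher against each of them in the dry gland, with dry over lactating quotients of 3.06 against CSN1S1, 2.86 against CSN2 and 3.28 against CSN1S2.

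Outside the mammary gland caseins were either near 0 or present at a low level together. All 4 were listed at 0 in 22 of the 45 libraries. In 7 more libraries 1 or 2 of them were above 0 with a sum of at most 0.220 FPKM. In the remaining 16 libraries each of the 4 was above 1 FPKM, and the sum lay between 50.6 and 715 FPKM. No library had a sum between 0.220 and 50.6 FPKM. The 16 libraries held 106 to 1492 ppm (parts in 1000000) of the summed casein level of the lactating gland, with a median of 159 ppm, and the dry gland held 15362 ppm.

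The highest level outside the gland was in the ovary of the dry cow, with 239 FPKM of CSN1S1, 222 of CSN2, 168 of CSN3 and 85.5 of CSN1S2. The ovary of the lactating cow had all 4 listed at 0. The dry gland stood 20.5-fold above that ovary for CSN3, and 6.85-fold, 7.53-fold and 6.98-fold above it for CSN1S1, CSN2 and CSN1S2. Next came the liver of the lactating cow, with 80.5 FPKM of CSN1S1, 76.4 of CSN2, 55.3 of CSN3 and 26.9 of CSN1S2, while all 4 were listed at 0 in the other 3 livers, that of the dry cow included. Rumen and muscle of the lactating cow followed with sums of 124 and 101 FPKM.

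The 16 libraries were unevenly spread over the animals. The dry cow supplied 11 of them, from all of its 12 tissues other than the mammary gland except liver. Its sums were 88.4 FPKM in spleen, 86.1 in frontal cortex, 80.6 in rumen, 71.8 in adipose tissue, 67.8 in uterus, 65.2 in ileum, 64.7 in kidney, 64.2 in muscle, 51.3 in heart and 50.6 in lung, beside the 715 FPKM of its ovary. The lactating cow supplied 3 of its 12 libraries, from liver, rumen and muscle, and its other 9 had sums of at most 0.199 FPKM. The males supplied 2 of their 20 libraries, the kidney of male A with 91.7 FPKM and the frontal cortex of male B with 52.2 FPKM. Lymphocytes had all 4 listed at 0, but 59 genes that reached 1 FPKM everywhere else were also at 0 in that library.

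**Figure D2:**
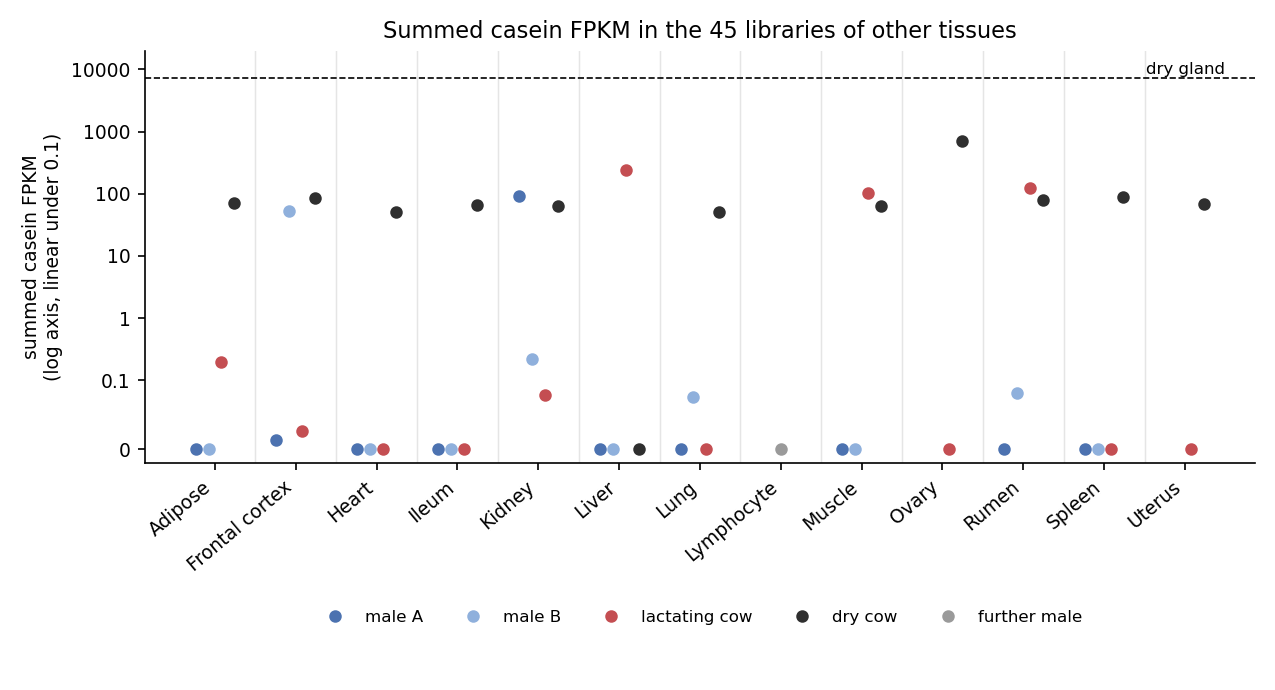
Summed FPKM of the 4 caseins (log axis, linear under 0.1) in the 45 libraries of other tissues, with 1 point per library, coloured by animal, and a dashed line at the dry gland. Points lie either at or below 0.220 FPKM or between 50.6 and 715 FPKM, and 11 of the 16 higher points belong to the dry cow.

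By tissue, the libraries overlapped throughout. Each of the 10 tissues sampled in all 4 animals had at least 1 library at or under 0.220 FPKM and at least 1 above 50 FPKM. Frontal cortex, kidney, muscle and rumen had 2 libraries of 4 with all caseins above 1 FPKM, and the other 6 tissues had 1 of 4. The median sums were 40.3 FPKM in rumen, 32.4 in kidney, 32.1 in muscle, 26.1 in frontal cortex and at most 0.0993 in the other 6. These medians do not differ beyond the spread of the libraries, which ran from 0 to 124 FPKM in rumen and from 0 to 239 FPKM in liver.

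Tissue levels were compared across all genes with a moderated F-test in limma on log2(FPKM + 1), over the 40 libraries of these 10 tissues. At an adjusted p under 0.05, 0 of the 4 caseins were called different between tissues, while 99.4% of the 16503 genes tested were called. Their F values were 0.280 for CSN1S1, 0.288 for CSN2, 0.289 for CSN3 and 0.299 for CSN1S2, against a median of 46.5 over all genes, and they held places 6 to 9 from the lowest F. The limma adjusted p were 0.970 to 0.976, and at an unadjusted p under 0.05 the count was also 0 of 4. With the animal as a block it was 0 of 4 too, while 99.6% of genes were called. Missing the threshold does not show that the tissues are alike. The casein values are either near 0 or above 1 FPKM, so the normal errors that the F-test assumes do not hold for them.

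The cows whose glands were sampled were then compared over the same tissues. The fit held all 40 libraries, those of the males included, and all of them shared its estimate of the spread. The SE and p-values are therefore not those of the cow libraries alone. In the lactating cow CSN1S1 ranged from 0 to 80.5 FPKM over 10 tissues with a median of 0.0130, and in the dry cow from 0 to 29.5 FPKM with a median of 22.2. The mean log2(FPKM + 1) of CSN1S1 was 1.69 in the lactating cow and 4.10 in the dry cow, a difference of -2.40 ± 0.84 (SE, limma adjusted p = 0.210). For CSN2 the difference, lactating minus dry cow, was -2.35 ± 0.82, for CSN3 -2.15 ± 0.76 and for CSN1S2 -1.58 ± 0.61, with limma adjusted p of 0.213, 0.221 and 0.282. So 0 of the 4 caseins were called, while 0.515% of 16503 genes were called lower and 0.521% higher in the lactating cow. At an unadjusted p under 0.05, counting both directions, the caseins were 4 of 4 and all genes 11.6%. The size of the differences depended on the value added before the log. With log2(FPKM + 0.1) they were -4.26 for CSN1S1, -4.12 for CSN2, -4.08 for CSN3 and -3.46 for CSN1S2. The limma adjusted p were then 0.132 to 0.159. Casein values here were either near 0 or above 1 FPKM, so the normal errors that limma assumes do not hold for them.

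Liver was the tissue in which the lactating cow was high and the dry cow was at 0, and the count turned on it. Without the liver libraries all 4 caseins were called lower in the lactating cow, with differences of -3.38 for CSN1S1, -3.31 for CSN2, -3.04 for CSN3 and -2.29 for CSN1S2 and limma adjusted p of 0.0126 to 0.0263. In that comparison 0.494% of 16407 genes were called lower and 0.360% higher in the lactating cow. With any other tissue or either male left out instead, no casein was called (44 of 44 values, limma adjusted p of 0.164 to 0.591). In these fits, of 15912 to 16464 genes each, 55 to 91 genes were called lower and 55 to 172 higher in the lactating cow. The fits share most libraries and the 4 caseins run together, so the 44 values are not independent. The units of this comparison are libraries of 1 animal each, so it describes these 2 cows and not lactating and dry cows at large.

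**Figure D3:**
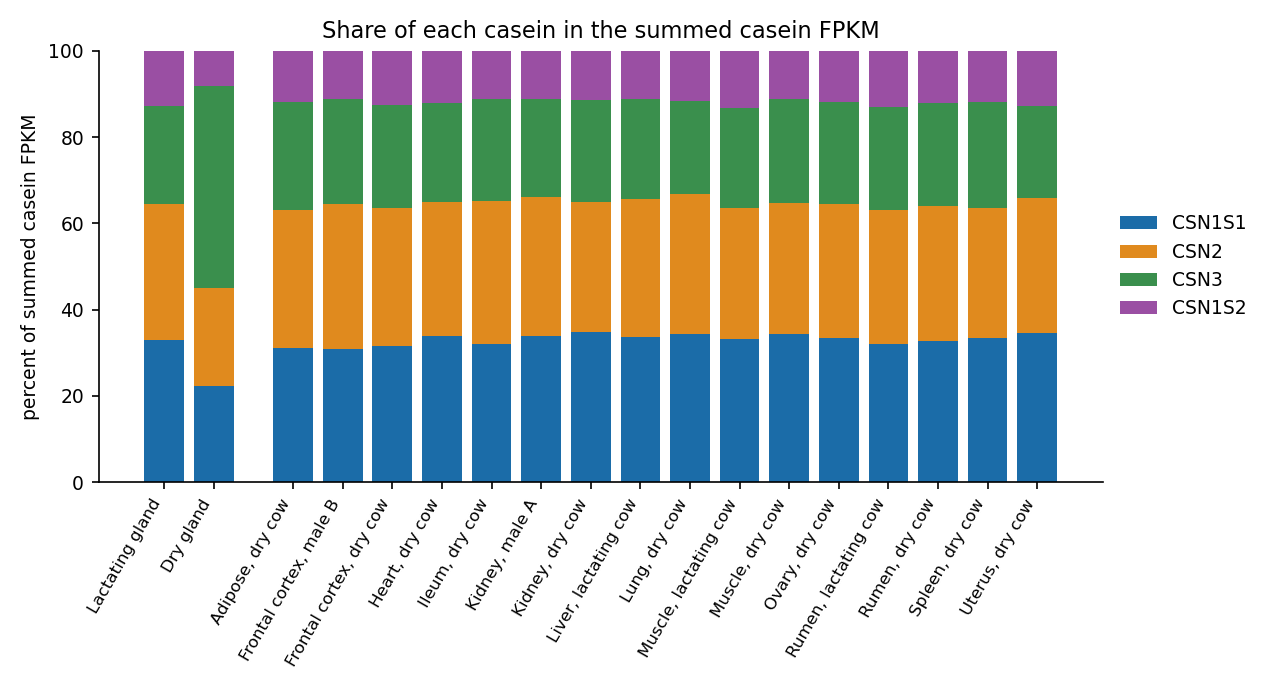
Percent of the summed casein FPKM held by each casein in the lactating gland, the dry gland and the 16 libraries of other tissues in which all 4 were above 1 FPKM (tissue and animal under each bar). CSN3 takes 22.7% in the lactating gland, 47.0% in the dry gland and 21.3% to 25.0% in the other tissues.

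The proportions of the caseins in these 16 libraries were close to those of the lactating gland. CSN1S1 made up 30.9% to 34.7% of the summed casein FPKM there, CSN2 30.1% to 33.5%, CSN3 21.3% to 25.0% and CSN1S2 11.2% to 13.3%. CSN3 over CSN1S1 lay between 0.616 and 0.807 with a median of 0.703, against 0.690 in the lactating gland and 2.11 in the dry gland, and 16 of 16 libraries were nearer on a log scale to the lactating gland. The same held for CSN3 over CSN2, with 0.665 to 0.818, and for CSN1S2 over CSN3, with 0.460 to 0.601 against 0.567 in the lactating gland and 0.173 in the dry gland. Where the glands themselves barely differ, being nearer to one of them says little. CSN1S2 over CSN1S1 lay between 0.325 and 0.411 with a median of 0.359. The lactating gland had 0.391 and the dry gland 0.365. For that ratio 4 of the 16 libraries were nearer to the lactating gland, for CSN1S2 over CSN2 8 and for CSN2 over CSN1S1 12. The 16 libraries include the 11 of the dry cow, whose own mammary gland had CSN3 as its leading casein.

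**Figure D4:**
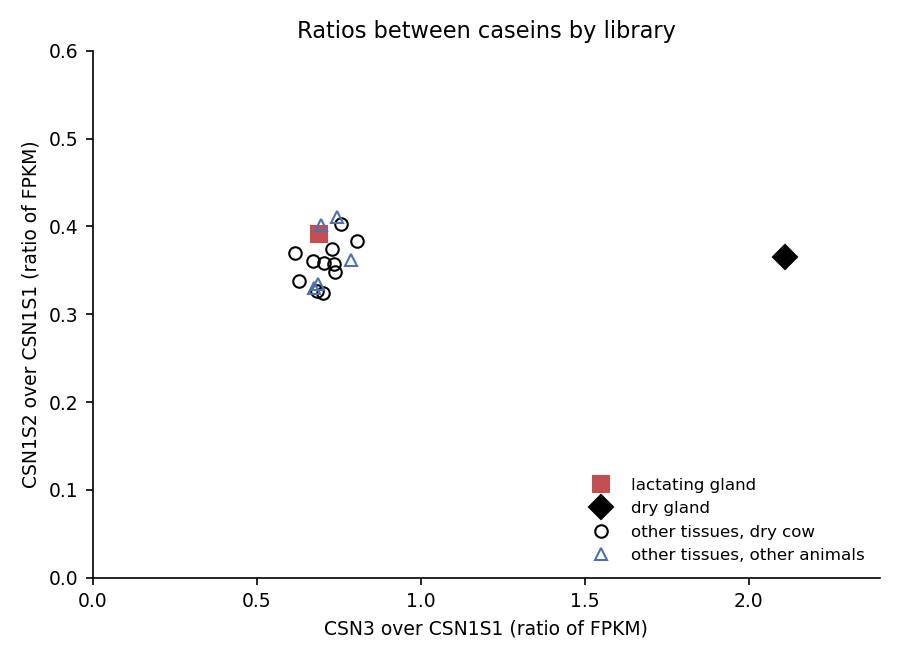
CSN1S2 over CSN1S1 against CSN3 over CSN1S1 (ratios of FPKM) in the glands and in the 16 libraries of other tissues with all 4 caseins above 1 FPKM. The 16 points lie at 0.616 to 0.807 on the horizontal axis, around the lactating gland at 0.690 and apart from the dry gland at 2.11, whichever animal they come from.

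As fractions of their level in the lactating gland, the 4 caseins of a library stayed close together. In the ovary of the dry cow they stood at 1514 ppm for CSN1S1, 1473 for CSN2, 1546 for CSN3 and 1385 for CSN1S2. Within each of the 16 libraries the highest of the 4 fractions was 1.08 to 1.23 times the lowest, and in the dry gland it was 3.28 times the lowest. CSN1S2 had the lowest fraction in 12 of the 16 libraries and CSN3 the highest in 8 of them. By level, 12 libraries had the order of the lactating gland, CSN1S1, CSN2, CSN3 and CSN1S2, and the other 4 had CSN2 ahead of CSN1S1.

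Genes with high levels in liver, rumen or muscle were also found at low levels in many of the same libraries. To follow them, sets of 18 liver genes, 10 rumen genes and 9 muscle genes were formed, whose mean was 2000 FPKM or more in that tissue and 100 or more times the mean of any other, and the median ppm of the source level was taken in each library. Counting a library at 50 ppm or more of the liver genes (in liver, of the rumen genes) as holding such traces, 35 of the 45 libraries did. All 16 libraries with caseins above 1 FPKM were among these 35, and the 10 under that limit, the lymphocyte library and 9 of the lactating cow, had at most 0.199 FPKM of casein. Those 10 were not free of transcripts of these genes: liver genes reached 33.3 ppm, rumen genes 6.51 ppm and muscle genes 76.3 ppm, the last in lymphocytes. Liver genes ranged from 74.1 to 517 ppm, rumen genes from 170 to 389 ppm and muscle genes from 155 to 522 ppm in the 16 libraries, leaving out the source tissue of each set. Liver genes ranged from 61.0 to 1340 ppm, rumen genes from 79.6 to 571 ppm and muscle genes from 90.8 to 869 ppm in the other 19 of the 35, where casein was at most 0.220 FPKM. Whether these transcripts arose in the tissue itself was not tested, nor was their part in the casein values.

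**Figure D5:**
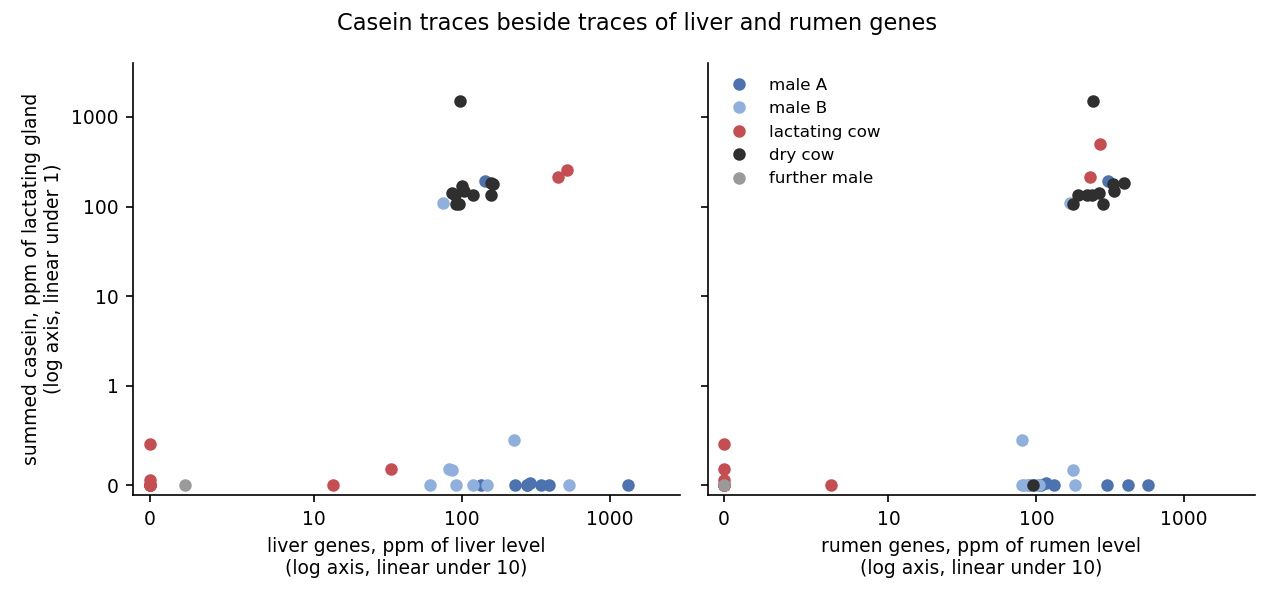
Summed casein in ppm of the lactating gland (log axis, linear under 1) against the median ppm of liver genes and of rumen genes (log axes, linear under 10), with 1 point per library coloured by animal and without the libraries of the source tissue. Libraries near 0 on the horizontal axis have no casein above 0.199 FPKM, and libraries with liver genes at 61.0 to 1340 ppm include both levels of casein.

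Within the libraries that reach that limit the lactating cow keeps muscle, liver and rumen of the 10 shared tissues. These are its 3 libraries of the 10 with casein above 1 FPKM and the 7 left out are near 0, so the direction of a difference here follows in part from the split. Its summed casein was 101 FPKM in muscle, 239 in liver and 124 in rumen, and in the dry cow it was 64.2 FPKM in muscle, 0 in liver and 80.6 in rumen. Liver thus differed most. The limma fit held 33 libraries, with those of the males and of the other tissues of the dry cow. Its difference and SE are therefore not those of these 3 tissues of the cows alone. The limma difference, lactating minus dry cow, was then 2.14 ± 0.91 (SE) for CSN1S1, 2.14 ± 0.90 for CSN2, 2.002 ± 0.83 for CSN3 and 1.84 ± 0.64 for CSN1S2, with adjusted p of 0.457, 0.452, 0.437 and 0.316. None of the 4 passed the threshold in limma, while 0.183% of genes did in that direction, and at an unadjusted p under 0.05, counting both directions, the caseins were 4 of 4 and all genes 9.23%. The difference between the cows over all 10 tissues and the presence of these traces cannot be told apart.

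The identifiers whose log2(FPKM + 1) ran closest to the mean of the 4 caseins over the 47 libraries were ENSBTAG00000014678, with a Pearson r of 0.9996, and ENSBTAG00000005859, with 0.996. The libraries share animals and the traces above, so this describes the pattern. ENSBTAG00000014678 stood at 132810 FPKM in the lactating gland and 2074 in the dry gland, and ENSBTAG00000005859 at 62183 FPKM in the lactating gland and 420 in the dry gland. Each was above 1 FPKM in 16 of the other 45 libraries, and their fraction in the ovary of the dry cow was 1404 and 1405 ppm, beside 1492 ppm for the summed caseins. Each casein correlated with the mean of the other 3 at 0.994 to 0.999.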

How the data were processed

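The authors deposited 1 table of FPKM for 24616 Ensembl identifiers. Tools listed without order, settings or annotation in the submitters' processing notes are Cufflinks, STAR and Trimmomatic 0.39, with the assembly UMD3.1. Of 51 columns, 47 matched a sample by name and 4 were not used. The names of these 4 hold Mamdup or Lym and match no sample title. Whether they are repeat runs of mammary and lymphocyte samples is unknown. Names of the 4 caseins came with the list of members, since the RefSeq table of ARS-UCD2.0 holds 0 Ensembl identifiers. Lists of regulators, whey proteins and cell markers by symbol could therefore not be applied. The members and lists were chosen with earlier results of these data known.

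Depth in fragments is unknown. Steps among values under 0.2 FPKM gave a relative depth of 0.779 to 1.53 times the median library. FPKM summed to 576130 to 964931 per library. No interval or floor from counting could be had, and an exact 0 can be a failed estimate.

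Levels were taken as log2(FPKM + 1), which understates changes at low values. Models were fitted with limma 3.58.1 (R 4.3.3, intensity trend, Benjamini-Hochberg adjustment over all genes, threshold 0.05) on genes that reached 1 FPKM in 2 or more of 40 libraries, by tissue alone, and by animal with tissue as a block. The models were tested on simulated data with independent normal noise. The caseins, either near 0 or above 1 FPKM, do not have such noise, so that test does not cover them. Tissues share the same 4 animals, whose libraries deviated together (median correlation 0.182 over 180 pairs). The libraries of an animal are not independent animals, so p-values measure the spread between libraries. Described genes were the 4 members and the 2 identifiers of most similar pattern. Python 3.11.15 was used for tables and plots.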

Additional observations from a re-analysis of the deposited data

Results flagged for a closer look

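In 6 of the 10 tissues with 4 libraries, 1 library stood apart from the others by a gap that took up most of the tissue's range in summed casein FPKM (Dixon's criterion). These are the tissues with 1 library of 4 above 50 FPKM, so the criterion restates that pattern, and the rate of about 1 in 20 groups at which chance meets it holds for independent normal values, which these are not. The dry cow supplied 5 of these, with 71.8 FPKM in adipose tissue, 51.3 in heart, 65.2 in ileum, 50.6 in lung and 88.4 in spleen. The sixth was the liver of the lactating cow with 239 FPKM. In each of these tissues the other 3 libraries had at most 0.199 FPKM. Gene by gene the criterion was met in 24 of 40 combinations of casein and tissue, which are the 4 caseins in the same 6 tissues. The criterion was applied to the caseins only, so no share over all genes can be set beside this count. The ranges of liver, rumen and muscle genes over the libraries that hold casein are given in the results, and their part in these values was not tested.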

How the results depend on the processing

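For the tissue F-test, no alternative in pseudocount, filter, scaling or libraries brought any of the 4 caseins past the threshold (80 of 80 values, adjusted p 0.714 to 0.987), and with the animal number as a replicate block 0 were called, with F of 0.468 to 0.480. The block changed no call of a casein, and 16433 of 16503 genes were called with it against 16400 without. The 80 values are not independent, since the fits share libraries and the 4 caseins run together. Without tissue as a block in the comparison of the cows 0 caseins were called, and 11 genes in all against 171. For the cows, the count of called caseins was 4 without liver, where 0.494% of all genes were called lower in the lactating cow. It was 0 with either male or any other tissue left out. With a pseudocount of 0.1 it was also 0, with differences of -4.26 for CSN1S1 and -3.46 for CSN1S2. Among libraries with traces of liver or rumen genes the differences reversed to 2.14 for CSN1S1, 2.14 for CSN2, 2.002 for CSN3 and 1.84 for CSN1S2. That alternative keeps the 3 libraries of the lactating cow with casein above 1 FPKM and leaves out 7 near 0. The log2 ratio of summed caseins between the glands was 5.57 after rescaling to equal sums, 6.58 after rescaling without the caseins, 6.02 with a pseudocount of 1 and 4.51 after quantile normalization. The casein share was 51.1% of the lactating gland and 1.08% of the dry gland among genes of at least 1 FPKM, and 59.4% and 1.09% without the most abundant other gene. The median trace over 45 libraries was 0.0278 ppm, and 0 to 0.169 ppm without single animals or without the libraries under 50 ppm of the liver genes. Unknown depth limits statements on zeros.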
